A study of Homo sapiens with 6 samples.

Results

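The genes described here were 48 genes of mitosis, listed by symbol: mitotic cyclins and their kinase, kinases of mitotic entry, spindle checkpoint and kinetochore genes, mitotic kinesins, and genes of spindle assembly, anaphase and cytokinesis. Of the 48, 41 had a row of their own among the 59192 features of the deposited RNA sequencing table, and all 41 passed the filter of 10 normalized counts on the mean over the libraries. The other 7 (PLK1, BUB1B, INCENP, CENPA, KIF14, ECT2 and DLGAP5) had no value analysed here and enter only the description of promoters. The genes were compared between SW480 cells with HPSE knocked down and the control line SW480-NC. SW480 is a line from a human colorectal adenocarcinoma, and HPSE encodes heparanase, an enzyme that cleaves heparan sulfate.

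Both lines had been infected with lentivirus, selected with puromycin, and carried Cas9. The HPSE-knockdown line, which the labels call SW480-45, was taken as the study's line SW480-KD1, with a guide against HPSE exon 4, and SW480-NC carried a control guide, both from a vector with EGFP. Each line was a stable infected population, sequenced in 3 libraries that the study describes as independent experiments. The libraries held 33221323 to 39802365 reads on features. Epithelial genes fitted the label of the cells, with EPCAM between 16775 and 18783 normalized counts and KRT8 between 70496 and 90059, whereas CDX2, a colon transcription factor, was at 19.0 to 40.3. CDH5, which defines endothelium, COL1A2 and LUM, which define fibroblasts, and CD79A, which defines B cells, were at 0 or below 7 in every library. The other measured markers of fibroblasts, endothelium and immune cells rose above this. COL1A1 was at 198 to 359, and the highest library reached 60.3 for FAP, 49.9 for PDGFRB and 46.7 for CD14. For the endothelial genes PECAM1, VWF and CLDN5 it reached 30.6, 19.0 and 13.8. The summed level of the 7 measured colon epithelium genes was 123150 to 132077 in the knockdown libraries and 141385 to 150921 in the SW480-NC libraries. KRT8 was the largest part of this sum, and its genes did not all move together. KRT20 was lower, at 4452 to 4614 against 7349 to 8587, and VIL1 was higher, at 8854 to 9508 against 7576 to 8524. The sum was 340 to 422 against 268 to 282 for the 5 measured fibroblast genes and 36.1 to 55.9 against 24.1 to 40.3 for the 4 endothelial genes, and that of the 3 immune genes, 59493 to 62231 against 67210 to 71985, was almost all LYZ. The part of these differences in the results below was not tested.

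HPSE itself (ENSG00000173083, GRCh38 chromosome 4, 83292461 to 83335153, minus strand) was at 136, 172 and 146 normalized counts in the knockdown libraries and at 270, 295 and 246 in the SW480-NC libraries. The groups did not overlap, and the knockdown mean was 56.1% of that in SW480-NC. The log2 fold change was -0.83 (SE 0.14), with an adjusted p of 0.0547 (limma), just outside the threshold of 0.05.

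Mitosis separates the copied chromosomes. CDK1 with cyclin B drives entry, the kinetochores tie chromosomes to spindle microtubules, the spindle checkpoint holds the anaphase-promoting complex in check until all are attached, and separase then cuts the cohesin that joins sister chromatids. Many of these genes are transcribed late in the cell cycle, in G2 and mitosis, from promoters with a cell cycle homology region (CHR) element, bound by the DREAM complex and by the MuvB complex with B-MYB and FOXM1, often beside CCAAT boxes, bound by NF-Y. In RNA from a whole culture, fewer cells in G2 and mitosis and less RNA per such cell cannot be told apart.

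The promoters are shown first because the letters of these elements are what most of these genes share beside their function. RefSeq windows on GRCh38.p14, from 250 bases before to 50 after a start, were at hand for 40 of the 48 genes, with 52 windows because some genes have more than 1 start. Windows of 1 gene can overlap. No window was at hand for AURKA, BUB3, TTK, BIRC5, TPX2, RACGAP1, UBE2C and FOXM1. The letters TTTGAA or TTTAAA, searched on both strands as the CHR element, were in 39 of the 52 windows (75%) and in 23.99% of all 35116 windows. By gene, 35 of the 40 had them in at least 1 window, in some only after the start. A match beginning in the last 100 bases before the start was in 51.92% of the 52 windows (26 of the 40 genes) and in 8.6% of all windows. The CCAAT letters, searched on both strands, were in 39 of 52 windows (75%) and in 34.61% of all windows. Both were in 30 of 52 windows (57.69%) and in 9.269% of all windows. A match is a description of letters and not of a bound site. No CHR letters were found in the windows of CCNA2, NEK2, BUB1, AURKB and SPC24, which says only that these letters are not there.

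Stretches of 100 bases before the start are printed for CDC20, ESPL1 and MKI67, which hold both elements, with the CHR letters and the CCAAT box in capitals on either strand (ATTGG is CCAAT, and TTCAAA is TTTGAA, read on the other strand). The stretches are from chr1:43358881-43358980 (plus strand), chr12:53268199-53268298 (plus strand) and chr10:128126424-128126523 (minus strand). In MKI67 the second CHR match runs into an ATTGG.
CDC20: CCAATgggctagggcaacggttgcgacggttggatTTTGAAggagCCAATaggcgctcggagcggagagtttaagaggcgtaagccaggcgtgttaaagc
ESPL1: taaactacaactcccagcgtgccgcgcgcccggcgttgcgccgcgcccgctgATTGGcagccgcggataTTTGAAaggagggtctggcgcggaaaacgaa
MKI67: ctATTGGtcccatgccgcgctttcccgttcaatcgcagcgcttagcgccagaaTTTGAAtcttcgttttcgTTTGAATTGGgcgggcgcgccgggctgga

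Shorter stretches of 30 bases around the CHR letters are printed for CDK1, CENPE and ANLN, which had among the lowest log2 fold changes below, and for the B cyclins CCNB1 and CCNB2, with log2 fold changes of -0.022 and 0.10. They lie at chr10:60778453-60778482 (CDK1), chr4:103198388-103198417 (CENPE, minus strand), chr7:36389830-36389859 (ANLN), chr15:59105105-59105134 (CCNB2) and chr5:69167108-69167137 (CCNB1). The same letters stood in front of CDK1, with all knockdown libraries below the controls, and of ESPL1, with all of them above. Neither gene had an adjusted p under 0.05 (limma, 0.123 and 0.261). Whether the letters bear on the differences was not tested.
CDK1: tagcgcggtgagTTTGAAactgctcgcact
CENPE: ggaaatTTTAAATTTAAAggcggggcggcc
ANLN: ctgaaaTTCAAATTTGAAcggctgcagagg
CCNB2: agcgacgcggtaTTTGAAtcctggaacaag
CCNB1: agcagtgcggggTTTAAAtctgaggctagg

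**Figure D1:**
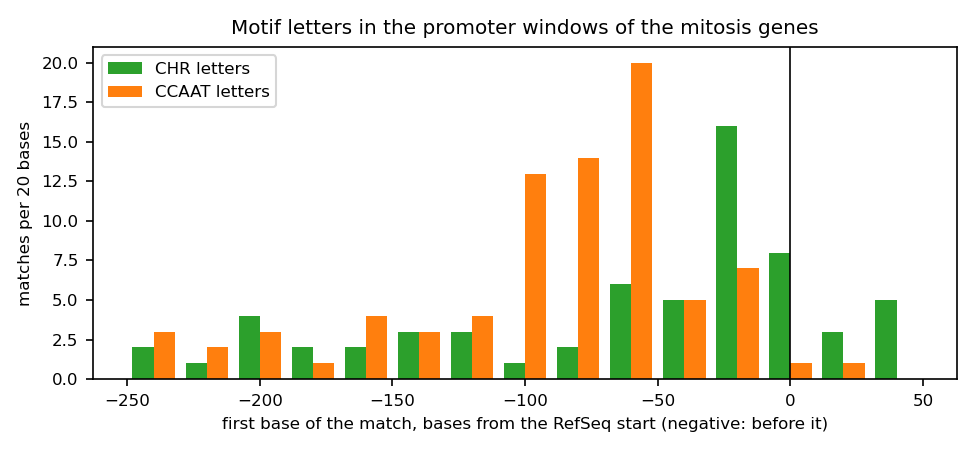
Number of matches to the CHR letters (green) and the CCAAT letters (orange) per 20 bases across the promoter windows of the mitosis genes, against the distance of the match from the RefSeq start in bases. The largest bin of the 63 CHR matches held 16 and lay 30 to 11 bases before the start, and that of the 81 CCAAT matches held 20 and lay 70 to 51 bases before it.

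No member of the group differed between the lines at an adjusted p under 0.05 by limma, against 0.802% of the 21703 features tested (0.47% lower and 0.332% higher in the knockdown libraries). The edgeR test called 0 members as well (0.627% of features). At an unadjusted p under 0.05, 6 of the 41 stood out (14.6%), against 16.2% of all features (8.15% lower and 8.1% higher), and by edgeR it was also 6 (15.9% of features). CDK1, CCNA2, CENPE and ANLN were lower and CDC25C and ESPL1 were higher, so the share was near the background. Every member averaged over 500 normalized counts, as did 8967 of the features, of which 21.2% had an unadjusted p under 0.05. Of the 41, 27 (65.9%) had a log2 fold change below 0 and 14 above, against 50.7% below 0 of all features and 57.1% of these abundant ones. The median log2 fold change was -0.042, against -0.0048 over all features and -0.031 over the abundant ones. Under quantile normalization 22 members were below 0 (50.7% of all features and 50.5% of the abundant ones). The median was then -0.0048, against -0.0051 over all features and -0.0023 over the abundant ones. With TMM scaling the median was -0.034 (0.0024 over all features). The tilt of the members thus remained under TMM scaling and was nearly gone under quantile normalization. The abundant features shared part of it in the main fit, and their median under TMM scaling is not given here.

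The knockdown libraries lay wholly below the SW480-NC libraries for 6 members (CDK1, CCNA2, BUB3, CENPE, TPX2 and ANLN) and wholly above for 5 (CCNB2, CDC25C, BIRC5, PTTG1 and ESPL1). Over all features the shares were 12% lower and 11.4% higher, 23.4% in either direction, and over the abundant ones they were 18.1% and 10.5%, 28.6% in either. DESeq2 called CDK1 and CCNA2, both lower, with 4.74% of features called (2.23% lower). The count at an unadjusted p under 0.05 dropped to 3 (CDK1, CCNA2 and ANLN) without SW480-NC replicate 2. There 12% of all features and 14.3% of the abundant ones had one. The count of members wholly lower was 3 under quantile normalization (10.6% of all features), 13 without HPSE-knockdown replicate 3 (18.3% of all features and 25.5% of the abundant ones), 10 without SW480-NC replicate 1 (16.6% and 22.9%) and 11 without SW480-NC replicate 3 (18.9% and 26.5%).

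For the 41 measured genes, the data set close limits on the size of the difference between these 2 lines. With 1 infected population per line, the limits do not cover the spread between populations. The 95% interval of the log2 fold change lay within 2-fold for 41 of 41 members and within 1.5-fold for 38, and it held 0 for 35. The median SE was 0.0802 for the members and 0.192 for all features. These genes were well covered, with means from 735 to 25424 normalized counts and at least 439 reads in a library.

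**Figure D2:**
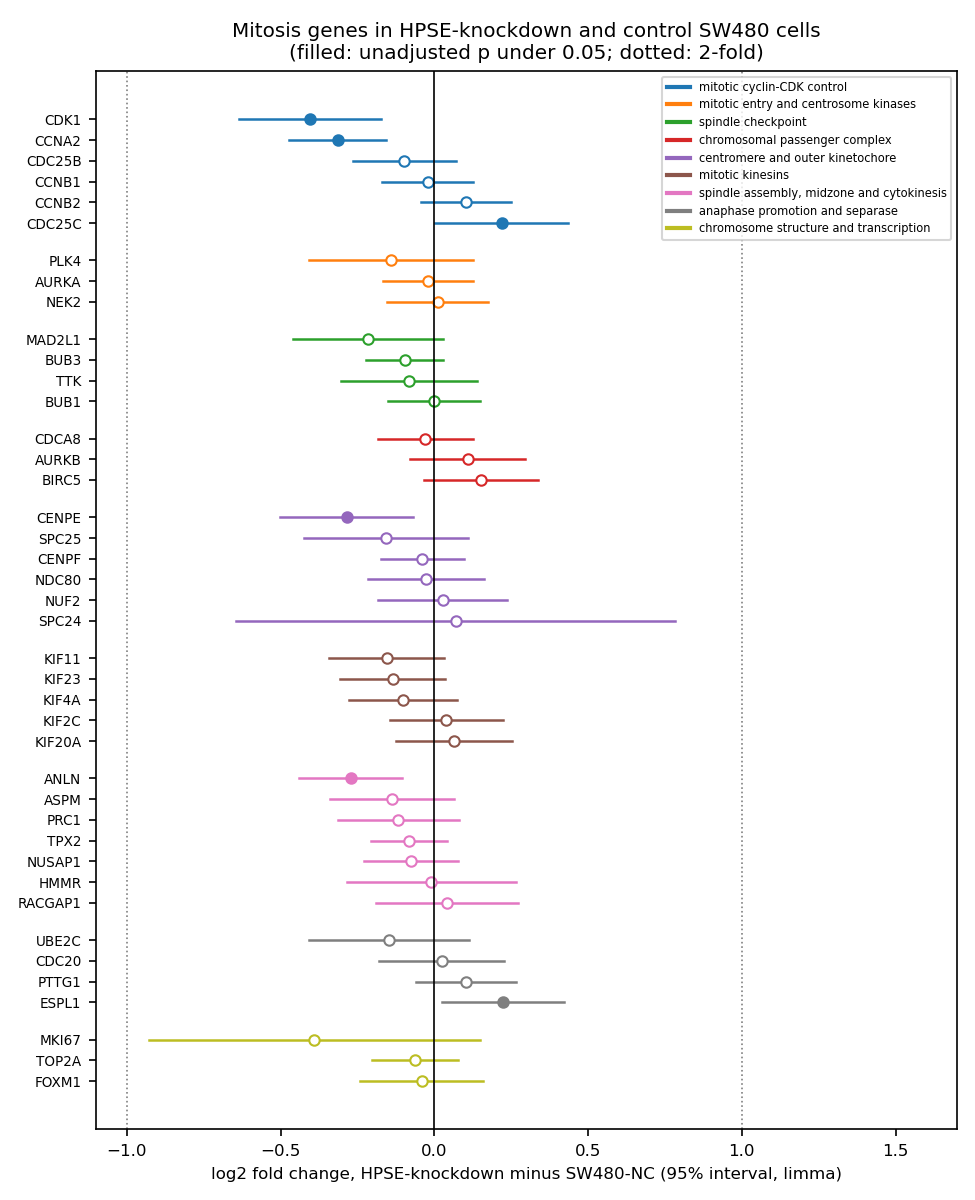
Log2 fold change (HPSE-knockdown minus SW480-NC) of each of the 41 mitosis genes with its 95% interval from limma, coloured by role, with filled points at an unadjusted p under 0.05 and dotted lines at 2-fold. CDK1 lies furthest to the left at -0.40, ESPL1 furthest to the right at 0.22, and the widest interval is that of SPC24.

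Among the 6 genes of cyclin and CDK control, CDK1 and its S and G2 partner CCNA2 were lower in the knockdown libraries, the B cyclins were at 98.5% and 107% of SW480-NC, and CDC25C was higher. CDK1 (ENSG00000170312, GRCh38 chromosome 10, 60778331 to 60794852, plus strand), the kinase that drives mitotic entry, was at 3892, 3659 and 4074 normalized counts in the knockdown libraries and at 5576, 5421 and 4451 in the SW480-NC libraries. The knockdown libraries were all below the lowest SW480-NC library, which was replicate 3. The means were 3875 ± 208 and 5150 ± 610 (SD, n = 3 each here and below), and the knockdown mean was 75.2% of the SW480-NC mean. The log2 fold change was -0.40 (SE 0.0995, 95% interval -0.64 to -0.17), with an adjusted p of 0.123 (limma).

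CCNA2 (ENSG00000145386, GRCh38 chromosome 4, 121816444 to 121823933, minus strand) encodes cyclin A2, which pairs with CDK2 and then CDK1. It was at 3727, 3693 and 3838 in the knockdown libraries and at 4920, 4664 and 4430 in SW480-NC, with no overlap and a tight spread in the knockdown line. The means were 3753 ± 75.9 and 4671 ± 245, and the knockdown mean was 80.3% of SW480-NC. The log2 fold change of -0.31 (SE 0.0676, 95% interval -0.47 to -0.16) had an adjusted p of 0.0979, the lowest among the members.

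CCNB1 and CCNB2 encode the B cyclins that activate CDK1 at entry. CCNB1 was at 7887, 8175 and 8560 in the knockdown libraries and at 7976, 8370 and 8655 in SW480-NC, so that the lines overlapped almost entirely, with a log2 fold change of -0.022 (SE 0.0631, 95% interval -0.17 to 0.12) and an adjusted p of 0.894. CCNB2 was at 4366, 4547 and 4396 against 3984, 4254 and 4154, all 3 knockdown libraries above the controls, but with a log2 fold change of only 0.10 (SE 0.063, adjusted p 0.461). CDC25B and CDC25C encode phosphatases that remove inhibitory phosphates from CDK1. CDC25C was at 756, 821 and 793 against 672, 639 and 726, without overlap, and its log2 fold change was 0.22 (SE 0.0931, 95% interval 0.0026 to 0.44) with an adjusted p of 0.302. CDC25B, at -0.098 (adjusted p 0.543), had overlapping groups.

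**Figure D3:**
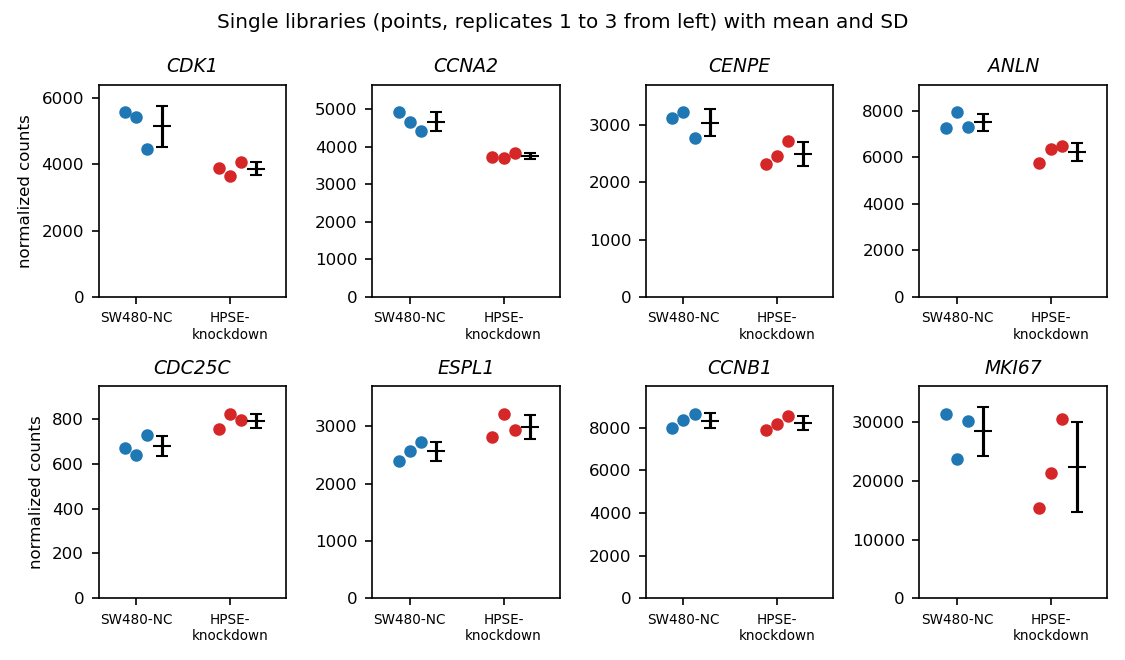
Normalized counts of 8 mitosis genes in each library (points), with mean and SD beside them, SW480-NC in blue and HPSE-knockdown in red, on axes that start at 0. CDK1, CCNA2, CENPE and ANLN lie lower and CDC25C and ESPL1 higher in all 3 knockdown libraries, CCNB1 overlaps, and MKI67 ranges from 15355 to 30515 within the knockdown line.

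Of the entry and centrosome kinases, AURKA, PLK4 and NEK2 had rows, and none reached an unadjusted p under 0.05. AURKA encodes Aurora A, the kinase that matures centrosomes and activates PLK1. It was at 3629, 3663 and 3458 against 3646, 3593 and 3661, a log2 fold change of -0.020 (SE 0.0631, 95% interval -0.17 to 0.13, adjusted p 0.902). PLK4, the kinase that starts centriole duplication, was at 1670, 1557 and 1928 against 2009, 2004 and 1668, a log2 fold change of -0.14 (SE 0.114, adjusted p 0.588). The third SW480-NC library was as low as the knockdown libraries there. NEK2, a kinase of centrosome separation, was at 2633, 2605 and 2805 against 2568, 2690 and 2726 (log2 fold change 0.010, SE 0.0702, adjusted p 0.96).

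In the spindle checkpoint, 3 of 4 measured genes had a lower mean and none an unadjusted p under 0.05. BUB1, a kinase that recruits the checkpoint proteins to the kinetochore, was at 3892, 3682 and 3897 in the knockdown libraries and at 3899, 3715 and 3855 in SW480-NC. The lines lay on top of each other, with a log2 fold change of 6.9e-05 (SE 0.0644, 95% interval -0.15 to 0.15, adjusted p 1.0). MAD2L1 encodes the MAD2 protein that holds CDC20 inactive. It was at 2584, 2299 and 2709 against 2588, 3195 and 3045, the first SW480-NC library lying within the knockdown range, with a log2 fold change of -0.22 (SE 0.105, 95% interval -0.46 to 0.029, adjusted p 0.359). BUB3, a partner of BUB1, had non-overlapping groups at 8555, 8487 and 8800 against 9107, 9327 and 9202. Its difference was small, a log2 fold change of -0.097 (SE 0.0536, adjusted p 0.418), and TTK, the kinase that starts checkpoint signalling, was at -0.083 (adjusted p 0.702).

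In the chromosomal passenger complex, which corrects wrong attachments, 2 of 3 measured genes had a higher mean in the knockdown line. BIRC5 encodes survivin, the subunit that binds the centromere. It was at 1243, 1208 and 1154 in the knockdown libraries and at 1061, 1060 and 1124 in SW480-NC, all 3 above the controls, with a log2 fold change of 0.15 (SE 0.080, 95% interval -0.034 to 0.34, adjusted p 0.396). AURKB, the kinase of the complex, was at 2321, 2301 and 2130 against 2033, 2001 and 2232 (log2 fold change 0.11, SE 0.0799, adjusted p 0.545), with 1 library of each line in the range of the other. CDCA8, which encodes borealin, was at 4196, 4274 and 4048 against 4138, 4164 and 4481 (log2 fold change -0.030, SE 0.0664, adjusted p 0.86).

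At the kinetochore, 4 of 6 measured genes had a lower mean, and the motor gene CENPE had an unadjusted p under 0.05. CENPE encodes the kinesin that moves chromosomes to the spindle equator. It was at 2311, 2458 and 2720 in the knockdown libraries and at 3130, 3223 and 2773 in SW480-NC. The groups did not overlap, though the highest knockdown library lay just below the lowest control. The log2 fold change was -0.29 (SE 0.0934, 95% interval -0.50 to -0.068), with an adjusted p of 0.207.

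CENPF, a large kinetochore and nuclear matrix protein gene, was at 14545, 14343 and 15779 against 15022, 15611 and 15222 (log2 fold change -0.039, SE 0.0584, adjusted p 0.782). NDC80, the subunit that grips the microtubule, was at 1824, 1676 and 1883 against 1802, 1920 and 1764 (log2 fold change -0.028, SE 0.0813, adjusted p 0.895). Both genes had overlapping groups. Its partners NUF2 and SPC25 had log2 fold changes of 0.027 and -0.16. SPC24, the remaining subunit, was at 913, 890 and 553 against 459, 894 and 946. Within each line 1 library stood well below the other 2, with a CV of 25.7% in the knockdown line and 34.9% in SW480-NC, so the log2 fold change of 0.070 (SE 0.307, 95% interval -0.64 to 0.78, adjusted p 0.934) turned to -0.26 without SW480-NC replicate 1.

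Among the kinesins, 3 of 5 had a lower mean and none an unadjusted p under 0.05. KIF11 encodes Eg5, the motor that pushes the spindle poles apart. It was at 5759, 5773 and 6551 in the knockdown libraries and at 6745, 7116 and 6272 in SW480-NC, where the third library of each line crossed into the other group. Its log2 fold change was -0.16 (SE 0.0802, 95% interval -0.34 to 0.031, adjusted p 0.386). KIF20A, a midzone motor of cytokinesis, was at 2800, 3098 and 2815 against 2634, 2720 and 2984 (log2 fold change 0.064, SE 0.0813, adjusted p 0.737). KIF23 and KIF4A, also of the midzone, were at -0.14 and -0.10, and KIF2C, which takes microtubules apart at centromeres, was at 0.039.

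In the genes of spindle assembly, midzone and cytokinesis, 6 of 7 had a lower mean, and ANLN had an unadjusted p under 0.05. ANLN encodes anillin, the scaffold of the contractile ring. It was at 5782, 6384 and 6499 in the knockdown libraries and at 7289, 7949 and 7298 in SW480-NC, with a clear gap between the groups. The means were 6222 ± 385 and 7512 ± 379, a log2 fold change of -0.27 (SE 0.0725, 95% interval -0.44 to -0.10) with an adjusted p of 0.14. TPX2, which activates Aurora A on the spindle, was at 11751, 11851 and 11398 against 12476, 12033 and 12565 (log2 fold change -0.083, SE 0.053, adjusted p 0.481). The groups did not overlap, but the knockdown mean was still 94.4% of the control mean. RACGAP1, a subunit of centralspindlin, was at 4310, 3689 and 4463 against 3836, 4441 and 3830 (log2 fold change 0.040, SE 0.0991, adjusted p 0.875). PRC1, ASPM, NUSAP1 and HMMR, which bundle or focus microtubules, had log2 fold changes of -0.12, -0.14, -0.076 and -0.0094.

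Of the 4 genes that bring about anaphase, 3 had a higher mean in the knockdown line. ESPL1 encodes separase, the protease that cuts cohesin. It was at 2808, 3221 and 2941 in the knockdown libraries and at 2396, 2564 and 2725 in SW480-NC, without overlap. The means were 2990 ± 211 and 2562 ± 164, a log2 fold change of 0.22 (SE 0.085, 95% interval 0.025 to 0.42) with an adjusted p of 0.261. PTTG1, which encodes securin, the inhibitor of separase, was at 2872, 3098 and 2798 against 2688, 2740 and 2728. It too had no overlap, with a log2 fold change of 0.10 (SE 0.0705, adjusted p 0.512). CDC20, the activator of the anaphase-promoting complex that MAD2 holds back, was at 6900, 6876 and 6095 against 6245, 6124 and 7192 (log2 fold change 0.024, SE 0.0871, adjusted p 0.918). UBE2C, the ubiquitin-conjugating enzyme of that complex, was at 2137, 2215 and 1699 against 2305, 2126 and 2226 (log2 fold change -0.15, SE 0.112, adjusted p 0.561), with the third knockdown library below all others.

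TOP2A, MKI67 and FOXM1 are used as proliferation genes in tumours. TOP2A encodes the topoisomerase that untangles sister chromatids, and it was at 21386, 20160 and 22584 in the knockdown libraries and at 22550, 22879 and 21503 in SW480-NC. The groups overlapped, with a log2 fold change of -0.063 (SE 0.0603, 95% interval -0.20 to 0.078, adjusted p 0.646). FOXM1, a transcription factor of G2 and mitosis genes, was at 6094, 6993 and 6104 against 6141, 6478 and 7128 (log2 fold change -0.042, SE 0.0855, adjusted p 0.847).

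MKI67 encodes Ki67, a protein that coats mitotic chromosomes and a common marker of cycling cells. It was at 15355, 21342 and 30515 in the knockdown libraries and at 31441, 23702 and 30191 in SW480-NC. The first knockdown library was the lowest of the 6 and the third was close to the highest control, so the CV was 34.1% in the knockdown line and 14.6% in SW480-NC. The knockdown mean was 78.8% of the control mean, a log2 fold change of -0.39 (SE 0.231, 95% interval -0.93 to 0.15) with an adjusted p of 0.449. It was -0.15 without HPSE-knockdown replicate 1 and -0.64 without HPSE-knockdown replicate 3. With TOP2A at nearly the same level in the same libraries (20160 to 22879), the spread of MKI67 was not shared by the other abundant member.

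MKI67 and TOP2A made up 18.4% to 24.3% of the summed normalized counts of the 41 genes. The sum was 199553, 206549 and 218824 in the knockdown libraries and 224312, 221192 and 225469 in SW480-NC. Without MKI67 it was 184198, 185206 and 188309 against 192870, 197490 and 195278. The knockdown libraries were lower in both sums, which are led by the few most abundant genes and were not tested. As a share of all reads the members took 0.570%, 0.575% and 0.627% in the knockdown libraries and 0.622%, 0.617% and 0.611% in SW480-NC, where the third knockdown library was the highest of the 6. The median deviation of the members from their own mean over the 6 libraries was -0.020, -0.035 and -0.010 (log2) in the knockdown libraries. It was -0.0011, 0.018 and 0.021 in SW480-NC, while that of all features lay between 0.0049 and 0.014 in each library. The features averaging over 500 normalized counts were not set out by library. Their median log2 fold change between the lines was -0.031, against -0.042 for the members.

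Levels of different genes were compared as normalized counts per kilobase of merged exons (GENCODE 29 annotation, GRCh38). In SW480-NC, TOP2A was highest at 3466, followed by TPX2 at 3428, CCNB1 at 3258 and CDC20 at 3199, with each of these overlapping the one before it. MKI67 followed at 2221 and overlapped with neither the gene above it nor the one below it. CDC25C was lowest at 203, below SPC24 at 270.0 and BIRC5 at 284. Of the 40 neighbouring pairs in this order, 35 overlapped between libraries, so only the coarse order holds. In the knockdown line 13 genes had the same rank, and the largest change was that of CDK1, from rank 15 to rank 21 (1310 against 986 normalized counts per kilobase).

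**Figure D4:**
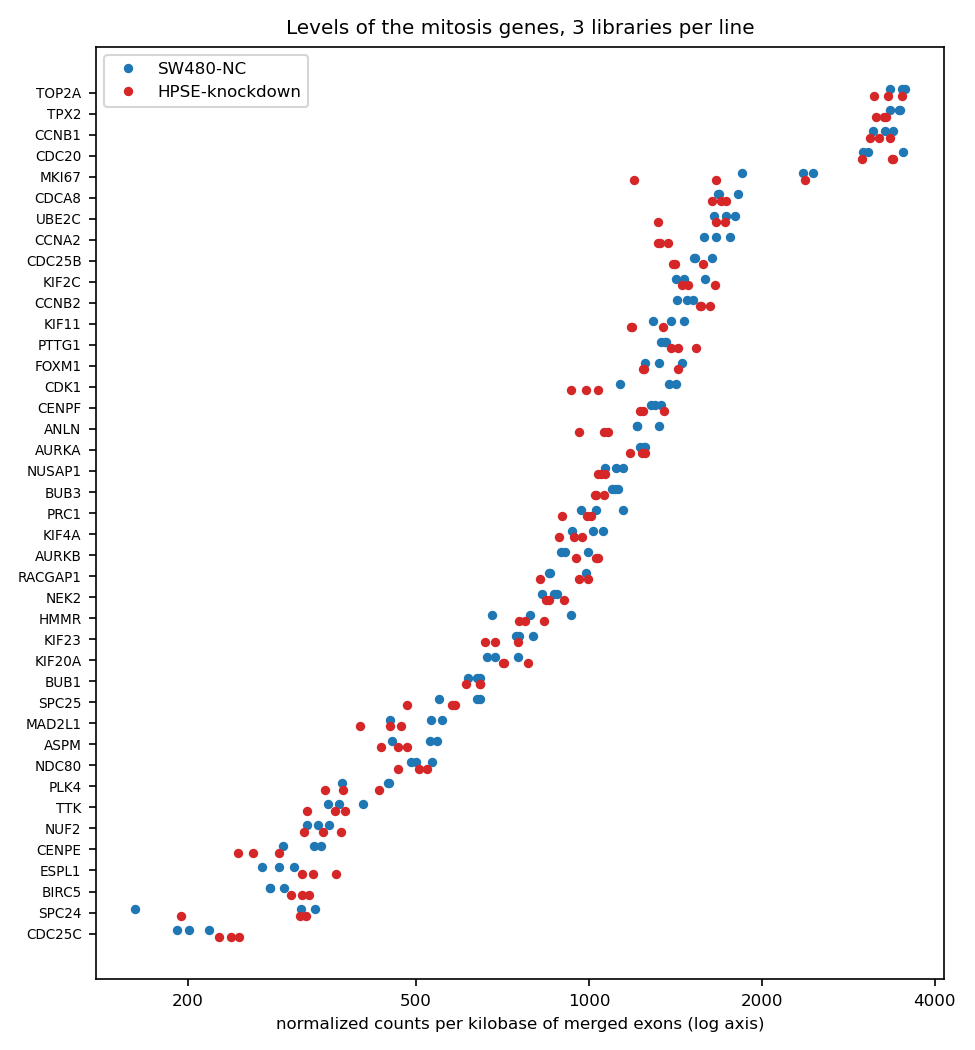
Level of each mitosis gene in normalized counts per kilobase of merged exons on a log axis, with the 3 SW480-NC libraries in blue and the 3 HPSE-knockdown libraries in red, ordered by the SW480-NC mean. TOP2A, TPX2, CCNB1 and CDC20 form the top with SW480-NC means of 3199 to 3466, and CDC25C is lowest at 203.

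Other genes of mitosis and the cell cycle were described from 7 further lists, of which 124 genes were tested. Of these, 95 had a log2 fold change below 0 and 29 above it. Below 0 were 50.7% of all features and 57.1% of the abundant ones. Under quantile normalization 50.5% of the abundant ones were below 0, and the 95 and 29 were not recounted under it. Of the 124 genes, 1 had an adjusted p under 0.05 and 28 (22.6%) an unadjusted p under 0.05, 27 of them lower. Over all features the unadjusted share was 16.2% (8.15% lower), and over the abundant ones, fitted on their own, it was 21.4% (13.7% lower). The medians of the lists ran from -0.042 for other spindle and centrosome genes to -0.15 for the MuvB, B-MYB and E2F regulators and for other kinetochore subunits.

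The gene that passed was CDK6, a kinase of G1 that phosphorylates RB1. It was at 9072, 9220 and 9951 normalized counts in the knockdown libraries and at 14186, 14703 and 12459 in SW480-NC, that is, a log2 fold change of -0.55 (SE 0.0785) with an adjusted p of 0.036. The groups were far apart, but the call was lost under quantile normalization (adjusted p 0.0695), without the intensity trend (0.152) and on leaving out any library other than SW480-NC replicate 3 (0.0695 to 0.155). In the same list of 18 G1 and checkpoint genes, CCNE2, the cyclin of S phase entry, was lowest with 252 ± 30.5 against 392 ± 26.3 (log2 fold change -0.64, adjusted p 0.0814).

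Among the 14 MuvB, B-MYB and E2F regulators, which act on G1/S genes and on the CHR promoters, 11 had a lower mean and 8 lay wholly below SW480-NC, against 12% of all features and 18.1% of the abundant ones. E2F7, a repressor of G1/S genes, was lowest at 1286, 1496 and 1228 normalized counts against 1835, 1844 and 1788 (log2 fold change -0.45, adjusted p 0.0928), and E2F4, a subunit of the DREAM complex, was highest at 0.010 (adjusted p 0.967). Of 23 genes of DNA replication, 18 had a lower mean and 7 (30.4%) an unadjusted p under 0.05, all lower. Lower with such a p were 8.15% of all features and 13.7% of the abundant ones, and 50.7% and 57.1% lay below 0. GINS4, of the replicative helicase, was lowest at -0.59 (adjusted p 0.647), with libraries split between 447 and 1621 in the knockdown line and between 534 and 1595 in SW480-NC. RFC4, of the clamp loader, was highest at 0.10 (adjusted p 0.528).

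Of the 17 condensin and cohesin genes, which shape and join chromosomes, 16 had a lower mean and 4 (23.5%) an unadjusted p under 0.05. Over all features 16.2% had such a p and 50.7% lay below 0, and over the abundant ones 21.4% and 57.1%. NCAPG of condensin was lowest, at 2620 ± 196 against 3312 ± 109 (log2 fold change -0.34, adjusted p 0.112), and NCAPD2, another condensin subunit, was highest at 0.089 (adjusted p 0.594). In the anaphase-promoting complex list of 13, FBXO5, its inhibitor EMI1, was lowest at -0.39 (adjusted p 0.122) and the subunit gene ANAPC15 highest at 0.27 (adjusted p 0.334). Of 23 other kinetochore genes, CENPO was lowest at -0.64 (adjusted p 0.336) and CENPT highest at 0.28 (adjusted p 0.236). Of 16 other spindle and centrosome genes, CKAP2 was lowest at -0.42 (adjusted p 0.509), with SW480-NC libraries at 3700, 3934 and 1877, and TROAP was highest at 0.15 (adjusted p 0.502).

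**Figure D5:**
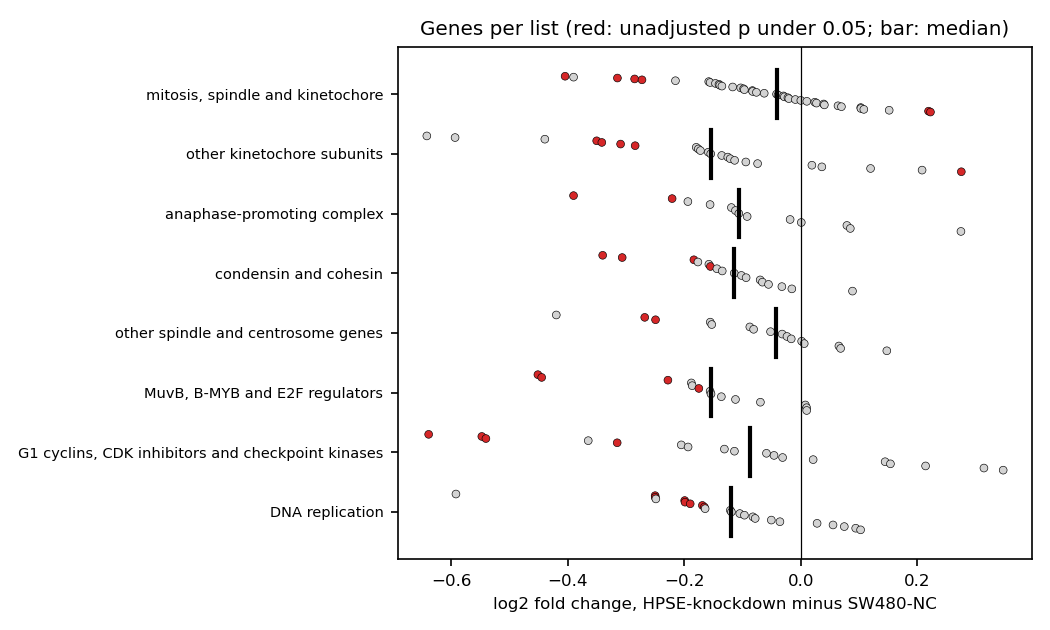
Log2 fold change (HPSE-knockdown minus SW480-NC) of each gene in the mitosis group and in the 7 further lists, 1 point per gene, red at an unadjusted p under 0.05, with a bar at the list's median. The median of the mitosis group is at -0.042, those of the other lists lie between -0.15 and -0.042, and the lowest genes of the further lists reach -0.64.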

How the data were processed

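RNA from HPSE-knockdown and SW480-NC cells, 3 libraries each, was prepared with a NEBNext Ultra kit and sequenced on an Illumina instrument by a company. The submitters' processing notes name bcl2fastq, HISAT2, DESeq2 and GRCh38, and the paper names Cuffdiff. The counting tool, its strand setting, the assembler and the annotation were not given in the sources used here, so reads of overlapping or antisense genes cannot be told apart. The deposited signal is, for each feature, a gene count scaled by the authors with 1 size factor per library. Undoing this scaling returned whole reads for 100% of values (tolerance 0.01). Of the 59192 features, 25927 had an Ensembl identifier and 33265 were assembler loci, which were not assigned to a gene here, so reads of a member on such a locus are not in its value.

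The 21703 features averaging 10 normalized counts or more were tested in R 4.3.3 with limma 3.58.1, on log2 of the normalized count with a pseudocount of 1 and with the intensity trend option, and Benjamini-Hochberg adjustment covered them all. Fold changes are on that scale. The test on normalized counts was kept as planned, with edgeR 4.0.16 (quasi-likelihood) and DESeq2 1.42.0 on the recovered reads as alternatives. The further alternatives were a pseudocount of 5, other filters, TMM and quantile scaling, no trend, robust variance with array weights, Ensembl identifiers only, a replicate block, and each library left out. A filter on a mean of 500 was added after the values had been seen. Exact tests of single genes could not have passed 0.05 with 3 libraries against 3, and none was run. The steps were tested on simulated data.

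The members, gene lists and tests were chosen with earlier results of these data known. Full values are given for HPSE, for a preset list of well-known mitosis genes where they had a row, for the highest and lowest gene of each role and, of the related lists, for the highest, the lowest and those with an adjusted p under 0.05. One such result is not reported here. BUB3, PTTG1 and the promoters shown were picked after their values were seen. Motif letters were searched in RefSeq windows (GRCh38.p14). Plots were made in Python 3.11.15 with matplotlib 3.10.9.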

Additional observations from a re-analysis of the deposited data

How the results depend on the processing

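Over the alternatives, 699 of 748 values of the 44 named genes kept their direction and their side of the threshold of 0.05, and none of the members passed it except CDK1 and CCNA2, under robust variance with array weights (adjusted p 0.0431 and 0.0431) and under DESeq2 (0.0304 and 0.0364). These 2 settings each called 2 members. HPSE passed the threshold with all features with any value (log2 fold change -0.83, adjusted p 0.0451), with a mean of at least 50 (-0.83, 0.046), with robust variance (-0.88, 0.0252), with Ensembl identifiers only (-0.83, 0.0462) and by DESeq2 (-0.83, 0.000924). Of all features, 174 were called by limma, 11 without the trend, 429 with robust variance, 767 by DESeq2 and 29 to 93 with 1 library left out. The related lists had 1 gene called, against 2 with a mean of at least 50 or Ensembl identifiers only, 3 with robust variance, 7 by DESeq2, 0 under quantile normalization or without the trend, and 0 to 1 with 1 library left out. Leaving out 1 library gave 3 to 8 members at an unadjusted p under 0.05. The share was 11.8% to 17.1% of all features and 14.3% to 24.6% of those with a mean of 500 or more. Wholly lower were 6 to 13 members (15.8% to 18.9% and 21.1% to 26.5% of the same features), and the median of the members was -0.064 to -0.038.

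Quantile normalization moved the median of the members to -0.0048 and left 3 wholly lower, and it turned CCNB1 to 0.054, AURKA to 0.036, FOXM1 to 0.030 and CDCA8 to 0.027. The cause was not tested. Other changes of direction came with 1 library left out, in genes with a log2 fold change of at most 0.070 in size, whose ranges were CCNB1 -0.053 to 0.0062, CDC20 -0.019 to 0.097, BUB1 -0.020 to 0.027, SPC24 -0.26 to 0.30, NDC80 -0.064 to 0.020, E2F4 -0.042 to 0.072, AURKA -0.037 to 0.0051, NEK2 -0.023 to 0.031, RACGAP1 -0.014 to 0.12, FOXM1 -0.11 to 0.017 and CDCA8 -0.050 to 0.0070.

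Replicate numbers showed no pairing over all features tested: the correlations of same-numbered deviations were 0.0025, -0.020 and 0.0074. Pairing limited to some genes was not tested. With the replicate number as a block, 12 features, 0 members and 0 related genes were called at an adjusted p under 0.05, 5 members had an unadjusted p under 0.05, and CDK6 had an adjusted p of 0.169.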
